A study of Mus musculus with 18 samples.

Results

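High-fat diet was compared with control feeding in CCR2- cardiac resident macrophages (CRMs), the macrophages of the mouse heart that lack the chemokine receptor CCR2 on their surface. All 3 libraries labelled high-fat diet CCR2- and all 3 labelled control CCR2- entered the comparison, 6 of the 18 libraries in the series. The other 12 held CCR2+ CRMs of the same diets and both subsets from aged mice. Of 55401 genes in the table, 15456 had enough counts to be tested.

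The cells were labelled as macrophages from the heart, and by the study's methods they were sorted from left ventricles with antibodies to CD11b, CX3CR1 and CCR2. The study's methods describe female C57BL/6J mice, young (3 months old) and aged, and no transgene is named. They state that all mice were fed normal chow, which conflicts with the high-fat diet labels. The diet groups here rest on the labels alone. The age, sex and strain of the mice fed the high-fat diet, the composition of the diet and its duration are not given in the sources used here, so any difference in these cannot be told apart from the diet. The design text counts 3 samples of each kind, each a murine heart, and no label ties a library to a named mouse. The p-values below therefore measure the spread between these libraries. The RNA came from sorted pools of cells, in which fewer cells of a type and less RNA per cell cannot be told apart.

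CCR2- CRMs are the long-lived macrophages of the heart. They are seeded before birth, renew themselves in place, take up dying cells and debris and carry surface molecules such as LYVE1, FOLR2 and TIM4. CCR2+ CRMs are replaced by blood monocytes and are known for inflammatory signals. Macrophages also show peptides to helper T cells on major histocompatibility complex (MHC) class II molecules, and they store or burn the lipid they take up. High-fat feeding brings more fatty acids and lipoproteins to the tissue, which is the reason for reading lipid, mitochondrial and inflammatory genes here.

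The 6 libraries held between 45977986 and 54315077 counts. Levels are given in CPM, the depth-scaled read count, after scaling by the trimmed mean of M values (TMM). 1 CPM stood for 42.2 to 64.4 counts. Control library 3 lay between control libraries 1 and 2. Among 4536 genes at least 2-fold apart between those libraries, 99.4% had their library 3 level between the other 2. A least-squares fit of library 3 gave weights of 0.495 on library 1 and 0.487 on library 2, with r = 0.9999 across genes, which are not independent replicates. High-fat diet library 3 was not placed in this way (weights of -0.0514 and 0.988, r = 0.981). The controls thus held little information beyond libraries 1 and 2, and the comparison was repeated without library 3, a setting chosen after seeing the data. Of the 78 genes named by rule, the log2 difference kept its sign for all but Lyve1, C1qa and C1qc, which were within 0.09 of 0, and moved by at most 0.59 (Dgat2). Values without library 3 are given beside the main genes, and counts of the process lists where they changed by more than 1.5 times. Libraries 1 and 2 were far apart. Of 4647 genes with a control mean of at least 20 CPM, 40.2% differed by 10-fold or more between them. Where the other control libraries were both at 20 CPM or more, library 1 was 10-fold or more below them for 545 genes, library 2 for 703 and library 3 for 0. In the high-fat diet group the same held for 39 genes in library 1, 15 in library 2 and 288 in library 3.

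**Figure D1:**
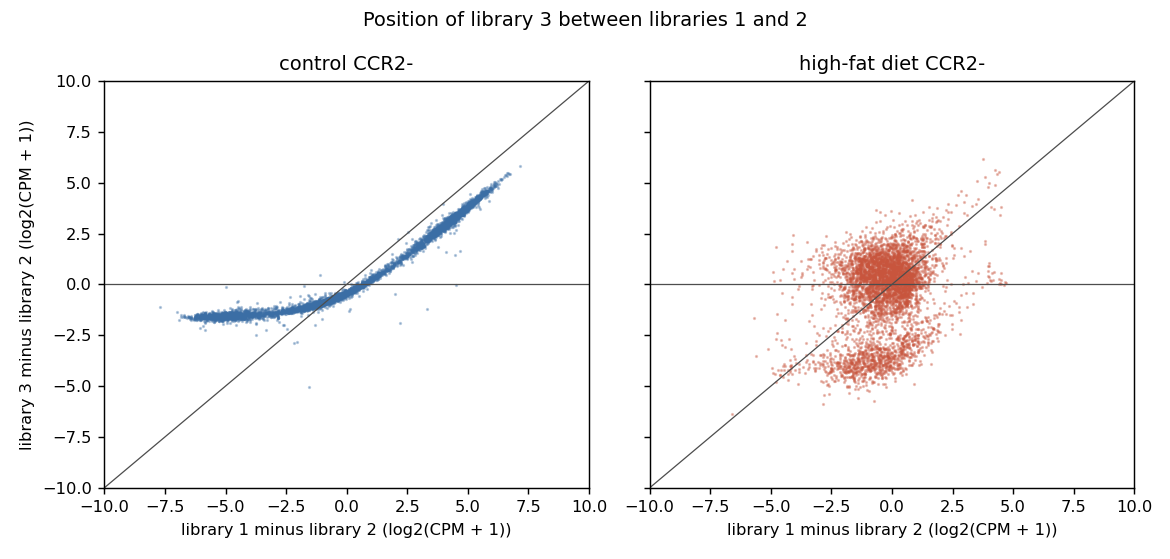
Each point is a gene with at least 20 CPM in library 1 or 2 of its group. The horizontal axis gives library 1 minus library 2 and the vertical axis library 3 minus library 2, both in log2(CPM + 1), with control CCR2- on the left and high-fat diet CCR2- on the right. In the control group the points follow 1 narrow curve between the horizontal line (library 3 equal to library 2) and the diagonal (library 3 equal to library 1), while in the high-fat diet group they form clouds, with one set of genes low in library 3.

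The macrophage identity of the sort did not part the groups. Of 20 genes for CRM subsets and macrophages, 2 (10%) did not overlap and stood higher with high-fat diet, and 0 stood lower. Over all genes, 11.3% stood higher and 10.1% lower, so the higher share was near that of all genes. The complement C1q genes were the most abundant of them. C1qb, a chain of C1q, was at 9841, 10715 and 7454 CPM in control libraries 1, 2 and 3 and at 10958, 7212 and 8463 CPM with high-fat diet (log2 difference -0.07 ± 0.37, standard error (SE), edgeR quasi-likelihood test, Benjamini-Hochberg adjusted p = 0.935). Csf1r, the receptor for the growth factor that keeps macrophages alive, was at 580, 1100 and 610 against 581, 1223 and 1879 CPM. Both genes overlapped between the groups. Folr2, the folate receptor of resident macrophages, was at 1199, 1099 and 821 CPM in the controls and at 1608, 1030 and 1230 CPM with high-fat diet. Lyve1, a hyaluronan receptor of the same cells, reached from 634 to 1036 CPM in the controls and from 382 to 1612 CPM with high-fat diet. Timd4, which binds phosphatidylserine on dying cells, was at 171, 2.42 and 72.6 against 32.4, 49.7 and 71.5 CPM, a spread within the controls wider than any difference between the groups.

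The 2 genes of this list without overlap were Ccr2 and Itgam, which encode antigens of the sorting gate. Ccr2 (ENSMUSG00000049103, chr9:124101950-124113557, GRCm38) was at 2.41, 2.91 and 3.88 CPM in the controls and at 7.40, 28.9 and 6.79 CPM with high-fat diet. Every high-fat diet library was above every control, with library 2 far above the rest, and the log2 difference was 2.23 ± 0.77 (SE, n = 3 against 3, edgeR adjusted p = 0.184, and 2.43 without control library 3). All 6 levels were under the 85.6 to 342 CPM of the control CCR2+ libraries. Itgam, which encodes CD11b, was at 6.72, 2.70 and 8.20 against 19.9, 73.4 and 141 CPM (3.73 ± 1.397, edgeR adjusted p = 0.196, and 4.04 without control library 3). Cx3cr1, the third antigen of the gate, overlapped, at 4.72, 104 and 37.7 against 55.9, 80.7 and 26.5 CPM.

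Over all genes, no gene passed the test with edgeR, which asked for a log2 difference beyond 2 and an adjusted p below 0.05. The share called was 0% higher and 0% lower, and the smallest adjusted p was 0.171. At an unadjusted p under 0.05 there were 2038 genes higher (13.2%) and 857 lower (5.54%) with high-fat diet, and 2024 and 815 of them were also beyond 2 on the log2 scale. The groups of 3 did not overlap for 1739 genes higher (11.3%) and 1558 lower (10.1%). The split depends on the scaling. It was 1420 higher and 2010 lower with relative log expression (RLE) factors, and the median log2 difference of all genes was 0.17 with TMM, -0.15 with RLE and 0.33 with library size alone. DESeq2 called 1139 genes higher (8.94%) and 758 lower (5.95%) on the same libraries, and limma-voom called 1182 and 836. Without control library 3, 2047 genes stood higher and 2043 lower without overlap, edgeR called 0 genes (smallest adjusted p 0.425), DESeq2 706 higher and 376 lower, and limma-voom 4 and 5. Of the 758 genes DESeq2 called lower, 77.2% differed by 10-fold or more between control libraries 1 and 2. The individual SE had a median of 1.64 on the log2 scale, so that only large or very even differences could stand out. What follows gives levels and differences, none of which passed the adjusted threshold with edgeR. DESeq2 adjusted p is printed for some genes, mostly where it was under 0.05, from the fit with control library 3. For others DESeq2 gave more, such as 0.0861 for Zbp1, 0.0931 for Hadhb and 0.253 for Jdp2.

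The genes of MHC class II stood lower with high-fat diet. The classical class II chains and their chaperone were among the most abundant messages of these cells, and their high-fat diet libraries lay close together. Of 10 class II genes tested, 6 did not overlap and were lower, where 10.1% of all genes did so, and 0 were higher. The median log2 difference of the 10 was -0.96, beside 0.17 over all genes. Without control library 3 the same count was 6 lower and 0 higher, where 13.2% of all genes stood higher and 13.2% lower. H2-Aa, the alpha chain of I-A, was at 8213, 15403 and 8281 CPM in the controls and at 4983, 4577 and 4673 CPM with high-fat diet. The 3 high-fat diet values lay between 4577 and 4983 CPM, below every control, and the group means were 2.24-fold apart (log2 difference -1.16 ± 0.31, SE, edgeR adjusted p = 0.171, DESeq2 adjusted p = 0.125, and -1.31 without control library 3). H2-Eb1, the beta chain of I-E, was at 7277, 13190 and 7152 against 4342, 3851 and 4351 CPM (-1.14 ± 0.31, edgeR adjusted p = 0.171, and -1.29 without control library 3).

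The 5′ regions of class II genes carry a shared set of boxes that hold the transcription factors RFX and NF-Y and the coactivator CIITA, and they are shown because the genes they precede lay on the same side of the comparison or, for H2-Oa, did not. The windows run from 250 bases before to 50 after the start of the gene and come from RefSeq on GRCm38.p6. Capitals mark GATTGG, the core of the Y box bound by NF-Y, or its reverse complement CCAATC.
H2-Aa (chr17:34287774-34288073, minus strand): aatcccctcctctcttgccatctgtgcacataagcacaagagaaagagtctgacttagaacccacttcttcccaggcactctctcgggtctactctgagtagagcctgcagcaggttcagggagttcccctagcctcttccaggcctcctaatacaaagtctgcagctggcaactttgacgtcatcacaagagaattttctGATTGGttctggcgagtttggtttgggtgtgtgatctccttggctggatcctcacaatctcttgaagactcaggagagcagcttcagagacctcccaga
H2-Eb1 (chr17:34305617-34305916, plus strand): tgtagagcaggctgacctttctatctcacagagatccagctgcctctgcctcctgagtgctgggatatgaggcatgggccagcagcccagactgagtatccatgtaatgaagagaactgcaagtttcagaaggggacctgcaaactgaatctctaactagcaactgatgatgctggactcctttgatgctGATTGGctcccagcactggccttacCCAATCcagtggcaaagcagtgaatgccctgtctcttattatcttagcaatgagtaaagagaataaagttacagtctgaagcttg
H2-DMb1 (chr17:34152941-34153240, plus strand): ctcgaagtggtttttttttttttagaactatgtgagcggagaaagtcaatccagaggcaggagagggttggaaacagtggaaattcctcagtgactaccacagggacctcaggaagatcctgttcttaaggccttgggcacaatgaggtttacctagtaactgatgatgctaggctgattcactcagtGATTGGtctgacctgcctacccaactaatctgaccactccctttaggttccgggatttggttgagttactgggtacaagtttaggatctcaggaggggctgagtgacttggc
H2-Oa (chr17:34092129-34092428, plus strand): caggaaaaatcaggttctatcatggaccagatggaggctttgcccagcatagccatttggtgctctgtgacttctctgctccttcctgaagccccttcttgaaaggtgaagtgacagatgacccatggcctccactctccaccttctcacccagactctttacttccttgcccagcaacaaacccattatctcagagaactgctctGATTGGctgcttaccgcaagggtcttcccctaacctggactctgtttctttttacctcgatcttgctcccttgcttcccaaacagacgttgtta

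The letters begin at base -49 of H2-Aa, -60 and, reversed, -35 of H2-Eb1, -62 of H2-DMb1 and -44 of H2-Oa. RefSeq windows were matched for 7 of the 9 class II genes looked for (all of the list but Cd74), all 7 with the letters in at least 1 window. Of all 32851 windows, 16.1% held them on either strand, a share counted by window and not by gene. The H2-DMa window at chr17:34122582-34122881 held no match. The letters were therefore present both in front of genes that stood lower and in front of genes that did not, and a match is a description of the sequence.

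The beta chain of I-A, H2-Ab1, was at 11469, 19534 and 10792 CPM in the controls and at 9730, 7032 and 7288 CPM with high-fat diet (-0.80 ± 0.34, edgeR adjusted p = 0.230). Its groups did overlap when library size alone was used for scaling. Cd74, the invariant chain that fills the class II groove until a peptide is loaded, was at 28292, 45090 and 25740 against 19452, 16166 and 15348 CPM, which made it the most abundant gene of the list (-0.96 ± 0.31, edgeR adjusted p = 0.180, and -1.11 without control library 3). The peptide-loading chains of H2-DM also lay lower. H2-DMb1 was at 621, 1284 and 670 against 424, 297 and 275 CPM (-1.37 ± 0.41, edgeR adjusted p = 0.171), and H2-DMa was at 769, 1050 and 652 against 527, 445 and 292 CPM (-0.97 ± 0.48, edgeR adjusted p = 0.285). Control library 2 was the highest of the 6 libraries for each of these genes, and library 1 alone was still above all 3 high-fat diet libraries.

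The remaining class II genes were scarce and did not separate. H2-DMb2, a second DM beta chain, was at 14.5, 27.3 and 13.9 against 20.3, 45.1 and 52.2 CPM. Ciita, the coactivator of class II transcription, was at 0.194, 1.02 and 0.202 against 5.94, 0.761 and 0.761 CPM. H2-Oa and H2-Ob, which restrain H2-DM, overlapped as well. The 11 genes of the class I pathway had a median log2 difference of -0.05, with 2 not overlapping higher and 1 lower. H2-D1, a class I heavy chain, was at 3647, 10994 and 5021 against 5040, 5580 and 8363 CPM. Tapbp, which holds class I at the peptide transporter, stood higher at 97.5, 63.3 and 57.5 against 110, 229 and 437 CPM (1.83 ± 0.59, edgeR adjusted p = 0.180), and overlapped with RLE scaling. Psmb8, a subunit of the immunoproteasome, lay lower, at 377, 585 and 340 against 294, 240 and 249 CPM.

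**Figure D2:**
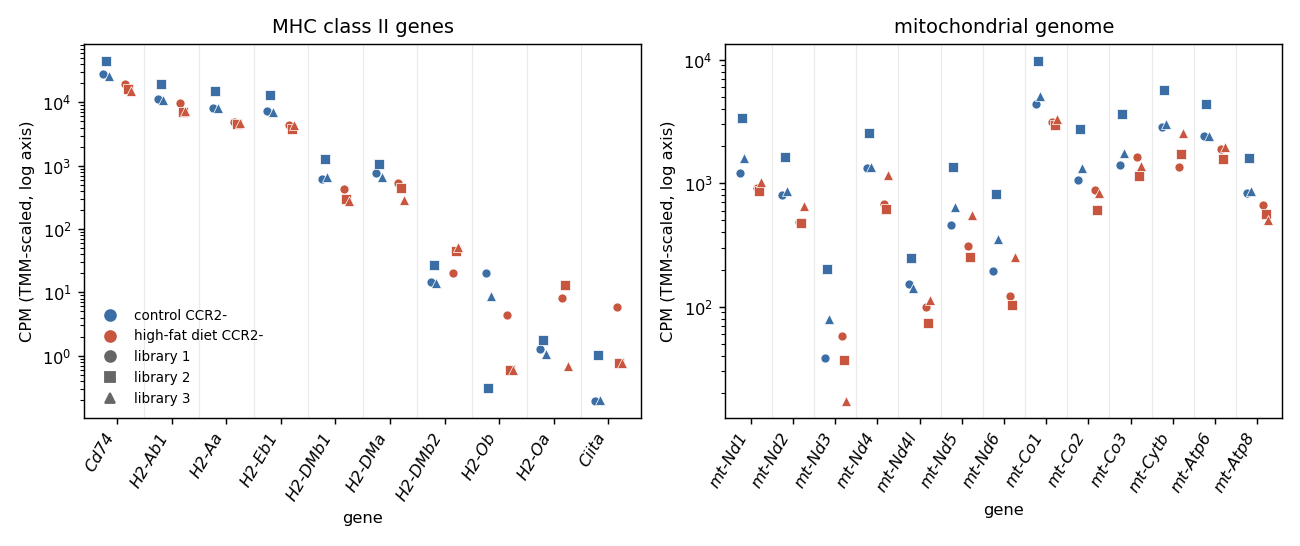
Levels in CPM on a log axis of the 10 MHC class II genes (left) and the 13 protein-coding genes of the mitochondrial genome (right), with 1 point for each library, blue for control and red for high-fat diet CCR2- CRMs and the marker shape for the library number. The 3 high-fat diet libraries lie below all 3 controls for 6 class II genes and 9 mitochondrial genes, and control library 2 is highest for each of these genes.

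The 13 protein-coding genes of the mitochondrial genome, which encode core subunits of the respiratory chain and ATP synthase, lay on one side of the comparison. All 13 had negative differences, with a median of -1.04 on the log2 scale (-1.19 without control library 3). Of the 13, 9 (69.2%) did not overlap and were lower, beside 10.1% of all genes. mt-Co1, a catalytic subunit of complex IV, was at 4352, 9737 and 5038 CPM in the controls and at 3109, 2954 and 3315 CPM with high-fat diet (-1.03 ± 0.37, edgeR adjusted p = 0.190). mt-Nd1, a subunit of complex I, was at 1213, 3387 and 1594 against 917, 857 and 1017 CPM (-1.15 ± 0.40, edgeR adjusted p = 0.185). Summed over the 13 genes, the level was 17054, 37982 and 19456 CPM in the controls and 12165, 10986 and 14292 CPM with high-fat diet (exact permutation test, two-sided, p = 0.1, the smallest that 3 against 3 allows). That test counts control library 3, close to a mix of libraries 1 and 2, as a separate replicate. The sum was not tested without it. In the aged CCR2- libraries, not labelled high-fat diet, the same sum was 9837, 9013 and 7679 CPM. Nuclear copies of mitochondrial sequence share reads with these genes, so their counts are uncertain to that extent.

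The nuclear genes of the respiratory chain did not follow. Of 36 tested, 2 stood higher and 2 lower without overlap (5.56% each, beside 11.3% and 10.1% of all genes), with a median of -0.09. Without control library 3 there were 2 higher and 7 lower (19.4%, beside 13.2% of all genes), with a median of -0.25. Ndufv2, a core subunit of complex I, was at 266, 301 and 206 against 127, 125 and 72.1 CPM (-1.25 ± 0.57, edgeR adjusted p = 0.249). Uqcrc2 of complex III was at 4.76, 7.89 and 5.11 against 62.6, 51.7 and 3.01 CPM, so high-fat diet library 3 was below the controls and the other high-fat diet libraries far above them.

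The main class II genes and the mitochondrial genes are abundant, and the set of abundant genes that includes them leaned to the lower side. Among 141 genes with a group mean of at least 1000 CPM, 27 (19.1%) lay lower and 6 (4.26%) higher without overlap. The 27 included 4 class II and 8 mitochondrial genes, so the lean of the set is in part that of these genes. Whether abundant genes lean lower apart from them was not tested. Malat1, a nuclear long non-coding RNA, was among the other 15, at 10600, 5299 and 5972 against 2659, 2617 and 2926 CPM (-1.41 ± 0.35, edgeR adjusted p = 0.171). Its high-fat diet libraries were all well below its controls, and DESeq2 gave an adjusted p of 0.0415. The aged CCR2- libraries were low as well, at 3054, 3021 and 2365 CPM. Psap and Grn, precursors of lysosomal proteins, and Ctsb, a lysosomal protease, were among the 6 that lay higher. Ctsb was at 4272, 4650 and 3153 against 4768, 6014 and 7874 CPM (0.63 ± 0.27, edgeR adjusted p = 0.232), and all of Psap, Grn and Ctsb overlapped with RLE scaling.

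**Figure D3:**
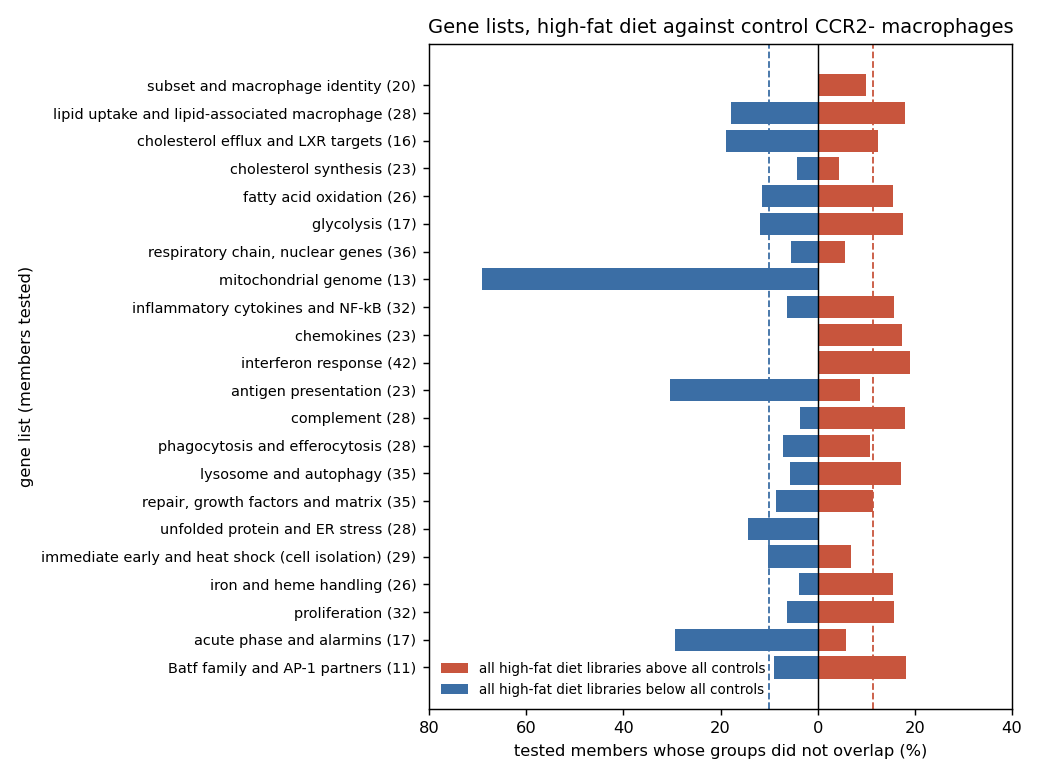
For each of 22 gene lists, bars give the percent of tested members (number in brackets) whose 3 high-fat diet libraries were all above (red, to the right) or all below (blue, to the left) the 3 controls. The dashed lines mark the same share over all 15456 genes, 11.3% and 10.1%, and the mitochondrial genome (69.2% lower), antigen presentation (30.4% lower) and acute phase lists (29.4% lower) reach farthest beyond them.

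The interferon-response genes without overlap stood on the higher side. Of 42 tested, 8 (19.0%) stood higher without overlap and 0 lower, beside 11.3% and 10.1% of all genes. With RLE scaling 6 stood higher and 2 lower. By sign, 23 differences were positive and 19 negative. Mx1 and Oas2 had lower means with high-fat diet, 26.4 against 1.56 and 28.1 against 3.38 CPM, with control standard deviations of 28.1 and 30.4 CPM. Irf7, the factor that amplifies type I interferon production, was at 9.07, 10.8 and 9.999 CPM in the controls and at 73.4, 53.1 and 294 CPM with high-fat diet. The controls were within 2 CPM of each other and every high-fat diet library was above them, with library 3 highest (3.82 ± 1.06, edgeR adjusted p = 0.171, DESeq2 adjusted p = 0.0128, and 3.82 without control library 3). Zbp1, a sensor of Z-form nucleic acid, was at 2.26, 4.29 and 3.20 against 35.1, 23.8 and 21.9 CPM (3.05 ± 1.17, edgeR adjusted p = 0.204). Bst2, which tethers budding virus to the cell, was at 114, 11.7 and 46.1 against 230, 195 and 174 CPM. The median of the list, 0.24, was close to the 0.17 of all genes, and the summed level of the list overlapped between the groups.

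The inflammatory list was divided. Of 32 inflammatory cytokine and NF-kB genes tested, 5 (15.6%) stood higher and 2 (6.25%) lower without overlap, beside 11.3% and 10.1% of all genes. The higher ones included the NF-kB subunits Relb and Rela and the adaptor Traf1. The subunits Nfkb1, Rel and Nfkb2 did not stand higher. Their means were 169, 133 and 109 CPM in the controls against 96.4, 99.0 and 110 CPM with high-fat diet. Relb, the activator subunit of the non-canonical NF-kB pathway, was at 5.47, 3.39 and 2.68 against 37.9, 58.8 and 62.3 CPM (3.78 ± 1.13, edgeR adjusted p = 0.171, DESeq2 adjusted p = 0.0119, and 3.58 without control library 3). Rela, the p65 subunit, was at 24.9, 2.75 and 13.3 against 80.8, 116 and 236 CPM. Traf1, an adaptor of tumour necrosis factor receptors and a target of NF-kB, was at 5.17, 7.25 and 2.73 against 33.9, 33.4 and 46.7 CPM. Its high-fat diet libraries were even, and the group means were 7.52-fold apart (2.91 ± 0.71, edgeR adjusted p = 0.171). The lower ones were the cytokine Il6, at 95.4, 149 and 81.8 against 24.9, 19.5 and 1.35 CPM, and the inflammasome sensor Nlrp3, at 66.3, 226 and 92.6 against 54.2, 37.1 and 34.6 CPM. Among 23 chemokines, 4 stood higher without overlap (17.4%) and 0 lower, beside 11.3% and 10.1% of all genes. Without control library 3, Ccl2 and Ccl4 lay lower. Cxcl10, which draws T cells, was at 41.7, 53.3 and 34.4 against 72.8, 74.2 and 172 CPM (1.30 ± 0.72, edgeR adjusted p = 0.328) and overlapped with RLE scaling. Ccl22 was at 0.366, 1.18 and 0.270 against 19.4, 14.3 and 1.11 CPM, with high-fat diet library 3 at the level of the controls.

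Lipid genes stood on both sides. Of 28 lipid uptake and lipid-associated macrophage genes, 5 stood higher and 5 lower without overlap (17.9% each, beside 11.3% and 10.1% of all genes). The higher ones were genes of storage and release. Dgat1 and Dgat2 encode the enzymes that complete triglyceride synthesis. Dgat1 was at 1.96, 1.11 and 1.38 CPM in the controls and at 12.5, 29.0 and 98.5 CPM with high-fat diet (4.97 ± 1.51, edgeR adjusted p = 0.174, DESeq2 adjusted p = 0.00224, and 4.92 without control library 3). Dgat2 was at 0.259, 0.616 and 0 against 2.60, 18.1 and 48.8 CPM (6.31 ± 2.22, edgeR adjusted p = 0.185). Plin2, the coat protein of lipid droplets, was at 427, 255 and 269 against 456, 525 and 1062 CPM (1.11 ± 0.53, edgeR adjusted p = 0.269) and overlapped with RLE scaling. The lower ones included Gpnmb and Cd9, both known from lipid-associated macrophages. Gpnmb was at 71.4, 142 and 82.8 against 28.1, 14.8 and 1.11 CPM (-2.75 ± 1.19, edgeR adjusted p = 0.233), and Cd9 was at 366, 662 and 387 against 206, 219 and 306 CPM (-0.95 ± 0.51, edgeR adjusted p = 0.319). Msr1, a scavenger receptor for modified lipoprotein, was at 357, 637 and 360 against 156, 293 and 320 CPM and overlapped with library size alone.

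In fatty acid oxidation, 4 of 26 genes stood higher (15.4%) and 3 lower (11.5%) without overlap. Hadhb, of the mitochondrial trifunctional protein, was at 9.98, 8.22 and 6.37 against 29.1, 96.6 and 77.4 CPM (3.05 ± 1.21, edgeR adjusted p = 0.212). Eci2, an isomerase for unsaturated acyl chains, was at 0.625, 1.30 and 1.42 against 20.4, 42.3 and 2.26 CPM, with high-fat diet library 3 barely above the controls. Acsl5, which activates fatty acids, lay lower at 180, 238 and 156 against 40.2, 99.0 and 73.0 CPM. In glycolysis, 3 of 17 genes stood higher (17.6%) and 2 lower (11.8%), beside 11.3% and 10.1% of all genes. Pfkl, the liver-type phosphofructokinase, was at 13.9, 4.48 and 7.62 against 29.3, 56.4 and 100 CPM (2.84 ± 0.98, edgeR adjusted p = 0.184), while Hk2, a hexokinase at the head of the pathway, was at 64.8, 25.4 and 33.5 against 18.6, 18.8 and 16.1 CPM.

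Few cholesterol synthesis genes separated. Among 23 tested, 1 stood higher and 1 lower without overlap (4.35% each, beside 11.3% and 10.1% of all genes), and 2 stood higher without control library 3. Sc5d, a late desaturase, was at 1.01, 2.04 and 0.911 against 10.4, 9.73 and 47.5 CPM (4.09 ± 1.16, edgeR adjusted p = 0.171, DESeq2 adjusted p = 0.00131). Ebp, which acts just before it, was at 94.0, 123 and 78.8 against 56.5, 46.8 and 30.2 CPM. Of 16 genes for cholesterol efflux and targets of the liver X receptors, 2 stood higher (12.5%) and 3 lower (18.8%). Pltp, which transfers phospholipid between lipoproteins, was at 494, 165 and 237 against 592, 645 and 1192 CPM. Apoc4, an apolipoprotein, lay lower at 14.0, 141 and 54.0 against 0.675, 6.82 and 1.17 CPM (-4.59 ± 2.14, edgeR adjusted p = 0.258), and Srebf1 overlapped.

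Proliferation genes were scarce in the controls. Of 32 tested, 25 had positive differences and the median was 2.65 on the log2 scale, but only 5 (15.6%) stood higher without overlap, beside 11.3% of all genes, and 2 stood lower. Without control library 3, 8 stood higher (25%, beside 13.2% of all genes), the added ones being Mki67, Top2a and Mcm4. Birc5, the mitotic protein survivin, was at 2.63, 2.54 and 2.75 CPM in the controls and at 70.6, 19.97 and 57.1 CPM with high-fat diet (4.22 ± 1.26, edgeR adjusted p = 0.171, DESeq2 adjusted p = 0.00543, and 4.25 without control library 3). Mcm6, of the replicative helicase, was at 4.74, 3.72 and 5.01 against 31.4, 34.0 and 171 CPM (4.13 ± 1.24, edgeR adjusted p = 0.171). Cdk1, the kinase that drives entry into mitosis, was at 1.68, 2.13 and 1.62 against 28.4, 26.9 and 35.8 CPM. For these genes every high-fat diet library stood far above the even controls. Mki67, the usual marker of cycling cells, did not follow, at 5.45, 1.35 and 6.71 against 6.30, 8.997 and 5.66 CPM. Several others, such as Ccna2 at 43.6, 23.5 and 0.703 CPM with high-fat diet, were at or below the control level in library 3, and Mcm3 and Mcm7 lay lower.

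Complement, acute phase and Batf family genes had both kinds. In complement, 5 of 28 genes stood higher (17.9%) and 1 lower without overlap, with C1ra, a protease of the C1 complex, at 0.323, 0 and 0.371 against 2.41, 9.85 and 91.4 CPM, and Cfd, the adipsin protease, at 253, 0.806 and 100.8 against 0.418, 0 and 0 CPM. In the acute phase and alarmin list, 5 of 17 (29.4%) lay lower, with Saa1 at 54.2, 80.3 and 42.1 against 5.30, 0.249 and 1.05 CPM (-4.74 ± 1.95, edgeR adjusted p = 0.218). In the Batf list, 2 of 11 stood higher (18.2%) and 1 lower (9.09%, and 2 lower without control library 3), beside 11.3% and 10.1% of all genes. Jdp2, a partner of Jun proteins, was at 9.63, 19.1 and 10.1 against 45.3, 33.6 and 86.0 CPM (2.09 ± 1.09, edgeR adjusted p = 0.303).

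The lists for housekeeping of the macrophage showed single genes. Of 35 lysosome and autophagy genes, 6 stood higher (17.1%) and 2 lower without overlap. Naglu, a lysosomal enzyme for heparan sulfate, was at 1.08, 1.28 and 0.455 against 25.9, 36.4 and 46.2 CPM (5.27 ± 1.86, edgeR adjusted p = 0.185). Ulk1, the kinase that starts autophagy, was at 1.66, 0.569 and 0.607 against 3.47, 14.4 and 57.6 CPM. Of 28 genes for phagocytosis, 3 stood higher (10.7%) and 2 lower (7.14%), beside 11.3% and 10.1% of all genes. Pros1, a bridge between dying cells and the receptor MERTK, was at 1.98, 2.75 and 2.26 against 21.5, 68.1 and 119 CPM (4.90 ± 1.49, edgeR adjusted p = 0.175), and Mertk itself overlapped. Clec7a, the beta-glucan receptor Dectin-1, was at 184, 670 and 295 against 80.6, 157 and 134 CPM and overlapped with library size alone.

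Among 35 genes for repair, growth factors and matrix, 4 stood higher (11.4%) and 3 lower (8.57%), near the 11.3% and 10.1% of all genes. Il4ra, the receptor chain for interleukins 4 and 13, was at 21.8, 4.45 and 10.8 against 88.1, 69.2 and 122 CPM (2.91 ± 0.84, edgeR adjusted p = 0.171, DESeq2 adjusted p = 0.0198). The 3 that lay lower, Arg1, Retnla and Chil3, are known in mouse macrophages as genes induced through that receptor. Retnla was at 779, 480 and 477 against 259, 162 and 220 CPM (-1.44 ± 0.68, edgeR adjusted p = 0.266). Chil3 was at 604, 508 and 419 against 319, 112 and 25.1 CPM. Arg1 was at 3.81, 95.0 and 29.2 against 2.06, 0.591 and 0.664 CPM, so that control library 1 was close to the high-fat diet libraries.

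In iron and heme handling 4 of 26 genes stood higher (15.4%) and 1 lower (3.85%), beside 11.3% and 10.1% of all genes. Without control library 3, 3 stood lower. Aco1, whose protein also binds iron-responsive elements, was at 0.539, 0.877 and 1.42 against 9.25, 3.61 and 69.4 CPM. In the unfolded protein list 0 of 28 stood higher and 4 lower (14.3%). Ddit3, which encodes CHOP, was one of these, at 112, 131 and 87.5 against 76.6, 48.2 and 5.45 CPM (-1.34 ± 1.32, edgeR adjusted p = 0.615). Of 29 immediate early and heat shock genes, which respond to cell isolation, 2 stood higher and 3 lower, shares of 6.90% and 10.3%. The higher ones were Egr2 and Fosl1. Fosl1, an AP-1 subunit, was at 2.13, 1.99 and 1.67 against 45.5, 23.4 and 80.1 CPM (4.68 ± 1.56, edgeR adjusted p = 0.182).

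Over all genes with a symbol and at least 20 CPM in the higher group, the smallest p-values on the higher side mostly belonged to genes that were nearly silent in all 3 controls. U2af1l4, a splicing factor related to U2AF35, had the smallest p of all (1.79e-05) and was at 0.345, 1.07 and 0.354 CPM in the controls and at 66.4, 39.4 and 22.3 CPM with high-fat diet (6.18 ± 1.07, edgeR adjusted p = 0.171). Ctsf, the lysosomal protease cathepsin F, was at 0.840, 1.04 and 0.304 against 92.7, 87.0 and 191 CPM (7.40 ± 1.38, edgeR adjusted p = 0.171). Treml4, a receptor of the TREM family known from nonclassical monocytes and macrophages that bind dying cells, was at 0.517, 1.75 and 2.01 against 53.1, 90.9 and 24.1 CPM (5.29 ± 0.999, edgeR adjusted p = 0.171). For each of these genes the high-fat diet libraries were at least 10-fold above the highest control. Ap1s2, Tmub2, Filip1l and Rnf5 were under 3 CPM in every control as well, with differences between 5.27 and 6.08 on the log2 scale. Mlf2 was expressed in every control, at 5.90, 8.39 and 5.38 against 120, 123 and 178 CPM (4.42 ± 0.88). The aged CCR2- libraries, not labelled high-fat diet, were also above all 3 controls for the genes named here. There Treml4 was at 213, 225 and 165 CPM and Mlf2 at 184, 154 and 129 CPM. Ctsf was at 1.06, 29.6 and 13.9 CPM, with aged library 1 barely above the controls.

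On the lower side the picture was different. Apart from Malat1, the genes named by the same rule (Trib2, Nomo1, Uty, Tsr1, Grwd1, Pawr and Nox4) were high in 1 of control libraries 1 and 2 and under 3 CPM in the other. Trib2, a pseudokinase, was at 0.927, 124 and 36.1 against 0.402, 0.233 and 0.0781 CPM. Nox4, an NADPH oxidase, was at 57.5, 0.0948 and 26.4 CPM in the controls and at 0 in all 3 high-fat diet libraries, at least 548-fold lower on the group means when 3 counts per library are taken as the floor. Pawr, an inhibitor of survival signalling, followed library 1 in the same way, at 86.7, 0.640 and 34.3 CPM. In each case library 3 lay between, so the separation of the groups rests on 1 control library and on its share in library 3. Uty, a Y-linked gene, was at 1.01, 77.7 and 25.5 CPM in the controls, while the other Y-linked genes on the list, Ddx3y, Eif2s3y and Kdm5d, were at 0.379 to 1.62 CPM in the same libraries. The study's methods name female mice. Xist, expressed from the inactive X chromosome, was at 190, 2.72 and 97.6 CPM in the controls and at 56.6, 48.4 and 2.17 CPM with high-fat diet.

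**Figure D4:**
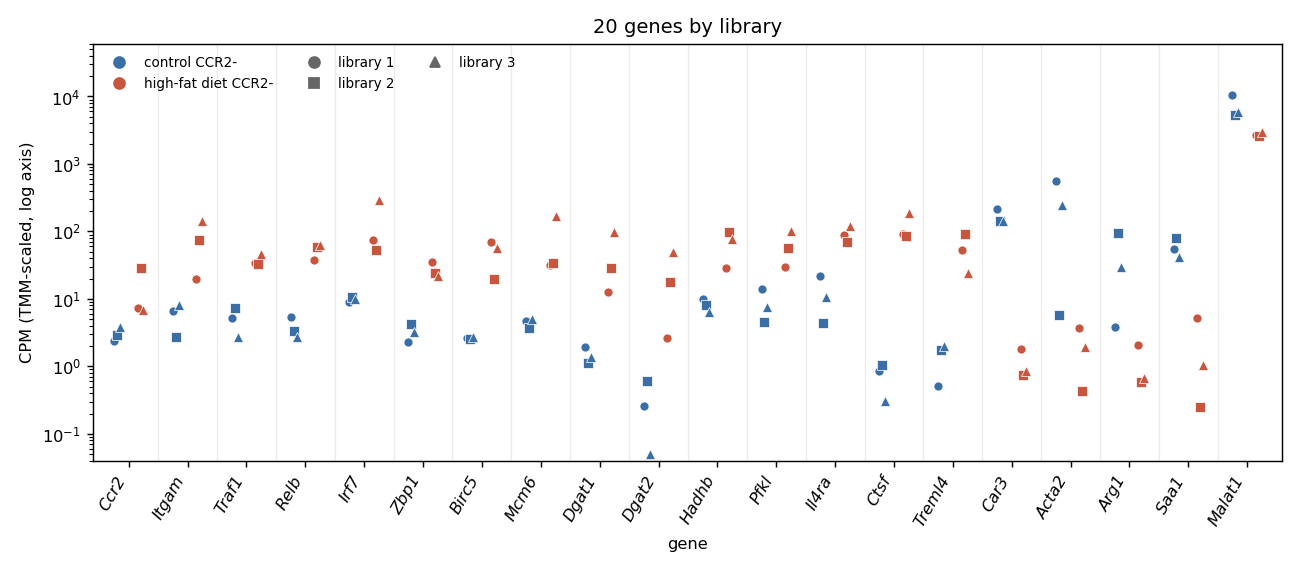
Levels in CPM on a log axis of 20 genes named in the text, with 1 point for each library, blue for control and red for high-fat diet CCR2- CRMs and the marker shape for the library number (a value of 0 is drawn at 0.05). Genes from Ccr2 to Treml4 lie higher in all 3 high-fat diet libraries and genes from Car3 to Malat1 lower, and for Acta2 and Arg1 the 2 first control libraries are far apart.

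Markers of other cells differed in amount between the libraries. Smooth muscle and pericyte markers lay lower, with 5 of 7 tested not overlapping (71.4%, beside 10.1% of all genes). Their summed level was 1038, 19.2 and 446 CPM in the controls against 11.2, 0.730 and 62.7 CPM. Acta2, smooth muscle actin, was at 564, 5.76 and 243 against 3.68, 0.435 and 1.93 CPM (-7.07 ± 1.82, edgeR adjusted p = 0.171), and thus followed control library 1. The adipocyte list summed to 238, 148 and 153 against 4.22, 0.901 and 1.03 CPM, almost all of it Car3. Car3, carbonic anhydrase 3 of fat and muscle, was at 218, 141 and 142 against 1.80, 0.746 and 0.839 CPM, high in every control and low in every high-fat diet library (148-fold on the group means, -7.20 ± 2.36, edgeR adjusted p = 0.180). Only 4 of the 10 adipocyte markers had enough counts to be tested. Cardiomyocyte markers summed to between 46.1 and 140 CPM and endothelial markers to between 75.8 and 534 CPM over the 6 libraries, both sums higher in the controls. The cardiomyocyte sum rested on Tnnt2, Myl2, Myl3 and Pln, each high in 1 of control libraries 1 and 2. The other 6 of 10 tested had positive differences, the list's median was 1.65 on the log2 scale, and Tnni3 alone did not overlap, higher with high-fat diet.

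Blood cell markers were present in both groups, at levels that varied by list. Neutrophil markers summed to 32.3, 600 and 211 CPM in the controls and to 463, 543 and 200 CPM with high-fat diet, so that control library 1 stood lowest. Monocyte markers summed to 1867, 1617 and 1304 against 970, 1454 and 2424 CPM, with 2 of 10 higher (Ccr2 and Treml4) and 1 lower (Chil3). Over all genes, 11.3% stood higher and 10.1% lower without overlap, and 13.2% each without control library 3. B cell markers reached 229 to 443 CPM and T and NK cell markers 84.1 to 600 CPM, of which 2 of 9 tested lay lower without overlap and 4 without control library 3. Igkc, the kappa light chain of immunoglobulin, was at 21.5, 1.398 and 9.16 against 88.3, 66.8 and 70.4 CPM. Cd79a, of the B cell receptor, was the other of 5 tested B cell genes without overlap, at 0.151, 0.0711 and 0 against 0.161, 11.5 and 0.586 CPM. Fibroblast markers summed to 1162, 458 and 645 against 216, 296 and 1372 CPM, and dendritic cell markers to between 178 and 361 CPM, with 0 genes of either list free of overlap. Erythroid, mast cell and mesothelial lists reached at most 244, 31.8 and 41.1 CPM in any library, and the platelet list lay between 2251 and 4028 CPM, nearly all of it Pf4, which macrophages also express. The part of these other cells in the class II, interferon and proliferation values was not tested.

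The same diet comparison in CCR2+ CRMs, which uses other libraries for both diets, was read for some of these genes. There 9% of all genes stood higher and 7.6% lower without overlap. Of the 10 class II genes, 0 lay lower and 1 higher in CCR2+ CRMs, against 6 and 0 in CCR2- CRMs. For H2-Aa the log2 difference was -0.72 ± 0.31 in CCR2+ CRMs, and the difference between the subsets was -0.44 ± 0.43 (edgeR interaction, adjusted p = 0.619). For H2-Eb1 it was -0.46 ± 0.30, and the subsets differed by -0.68 ± 0.43 (adjusted p = 0.394 by edgeR). A difference between the subsets was not detectable for these genes with this spread. mt-Co1 had nearly the same value in both, -1.03 ± 0.37 in CCR2- and -1.02 ± 0.37 in CCR2+ CRMs, and of the 13 mitochondrial genes 3 did not overlap and were lower in CCR2+ CRMs. Malat1 was lower by similar amounts, -1.41 ± 0.35 and -1.24 ± 0.34. Of the genes named for the smallest p on the higher side, U2af1l4, Treml4, Ap1s2, Filip1l and Rnf5 were also higher in CCR2+ CRMs. Their log2 differences there lay between 4.11 (Rnf5) and 6.02 (Filip1l). Ctsf, Tmub2 and Mlf2 did not follow, at -0.42, -0.43 and -0.20 in CCR2+ CRMs. For none of these genes did the difference between the subsets pass the edgeR test.

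Only 3 of the 15456 genes (0.0194%) passed the test of a difference between the subsets, at an adjusted p of 0.0299 by edgeR, and 2 of them, Batf and Rab4b, are described here. Both were low in the control CCR2+ libraries and not in the other groups. Batf, an AP-1 factor of activated immune cells, was at 201, 197 and 142 CPM in control and at 150, 123 and 157 CPM in high-fat diet CCR2- CRMs (-0.33 ± 0.56). In CCR2+ CRMs it was at 4.69, 4.87 and 7.55 CPM in the controls and at 246, 150 and 159 CPM with high-fat diet (5.02 ± 0.66). Rab4b, a small GTPase of endosome recycling, was at 145, 263 and 147 against 57.1, 29.2 and 54.7 CPM in CCR2- CRMs (-1.98 ± 0.67) and differed by 4.60 ± 0.75 in CCR2+ CRMs. All 3 calls were lost, with 0 genes called, when any of the 6 CCR2- libraries was left out.

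**Figure D5:**
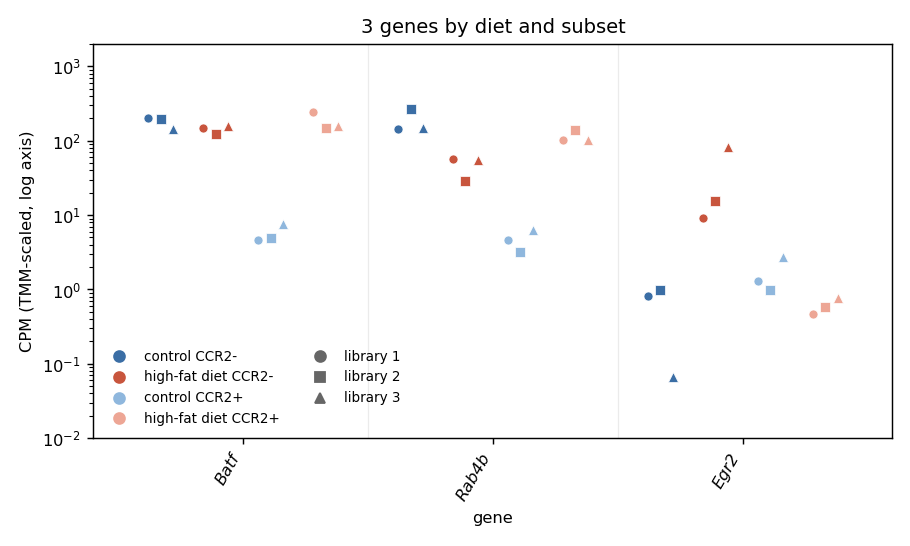
Levels in CPM on a log axis of Batf, Rab4b and Egr2 in control and high-fat diet CRMs of both subsets, with 1 point for each of 12 libraries, colour for the group and marker shape for the library number. The control CCR2+ libraries are between 3.20 and 7.55 CPM for Batf and Rab4b, below every other group, and for Egr2 the high-fat diet CCR2- libraries are the highest.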

How the data were processed

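Cardiac resident macrophages were sorted from mouse left ventricles by the authors, and total RNA was made into SMART-Seq v4 libraries, a full-length protocol that does not mark the strand. By the study's methods and the submitters' processing notes, reads were checked with FastQC, trimmed with cutadapt, mapped with HISAT2 and assembled with StringTie. The deposited table holds whole-number counts per Ensembl gene, not normalized, for 18 libraries in 6 groups of 3. Versions of these tools, the genome build and the counting of reads shared by several genes are not given in the sources used here. No column of the table was left unused (0), and 55141 gene identifiers matched a symbol while 260 did not. Coordinates are those of GENCODE M21 on GRCm38, matched by identifier.

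Counts were analysed in R 4.3.3 with edgeR 4.0.16: genes were filtered by filterByExpr, libraries scaled by TMM, and a quasi-likelihood model fitted to all 18 libraries with group as the only term, so that all groups shared one estimate of the spread. Aged CCR2- library 3 also lay between libraries 1 and 2 of its group, for 99.4% of 4651 genes at least 2-fold apart. It entered the shared estimate, also in the fits without control library 3. Only the fits of the compared libraries left it out. Genes were called at a Benjamini-Hochberg adjusted p under 0.05 and a log2 difference beyond 2, the thresholds of the study's methods, while the difference between subsets was called at the adjusted p alone. SE is the log2 difference divided by the square root of F. A gene did not overlap when all 3 libraries of one group were above all 3 of the other. DESeq2 1.42.0 and limma-voom (limma 3.58.1, with sample quality weights) were alternatives, beside other scalings, filters, sets of libraries and a replicate block. Same-numbered control and high-fat diet CCR2- libraries did not deviate together (correlations 0.0104, -0.0069 and -0.0330), so the numbers were not used as pairs. Whether same-numbered CCR2- and CCR2+ libraries of a group deviated together was not tested. Each tool was tested on simulated data.

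Genes named were all 20 of the identity list, the 2 of lowest p in each other list with at least 10 CPM, and 8 in each direction of lowest p without overlap and with at least 20 CPM. Genes beyond these were named after their values were seen, as examples of a list's count. The comparison, the 22 process lists and the 15 cell type lists were chosen with earlier results of these data known. Without strand, reads of overlapping genes on opposite strands cannot be told apart. 1 gene that passed the test of a difference between subsets is not reported here.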

Additional observations from a re-analysis of the deposited data

Results flagged for a closer look

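The diet difference was unlike in the 2 subsets for Batf and Rab4b by the interaction test of edgeR (adjusted p = 0.0299 for each). The CCR2- difference minus the CCR2+ difference was -5.35 ± 0.84 (SE, log2) for Batf and -6.58 ± 1.003 for Rab4b, with 3 libraries in each of 4 groups. For Batf, 3 of 3 high-fat diet CCR2+ libraries were above 3 of 3 controls, and the CCR2- groups overlapped.

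Egr2, an immediate early transcription factor, had estimates of opposite sign in the subsets, and that in CCR2+ CRMs was close to its SE. It was at 0.819, 0.971 and 0.0674 CPM in control and at 9.28, 15.6 and 81.7 CPM in high-fat diet CCR2- CRMs, a log2 difference of 5.84 ± 1.69. In CCR2+ CRMs it was at 1.29, 0.975 and 2.77 CPM in control and at 0.474, 0.580 and 0.778 CPM with high-fat diet, a log2 difference of -1.45 ± 1.41 (edgeR adjusted p = 0.586). The test of the difference between the subsets, an interaction term fitted over all genes, gave 7.29 ± 2.16 and did not pass (edgeR adjusted p = 0.127).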

How the results depend on the processing

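With edgeR, 0 genes were called higher and 0 lower with RLE factors or library size alone, without the filter on low counts, with 10 counts or more required in each compared library, with the compared libraries only, with robust dispersion and, chosen after seeing the data, with a mean of at least 100 CPM. Leaving out 1 library at a time with edgeR gave 0 to 0 calls. DESeq2 called 1139 higher and 758 lower on 18 libraries, and 1588 and 799 on the 6 compared. limma-voom called 1182 and 836. Without control library 1, 2 or 3, chosen after seeing the data, DESeq2 called 681, 802 and 706 higher and 340, 394 and 376 lower, and limma-voom called 169, 506 and 4 higher and 302, 709 and 5 lower.

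The 3 genes that differed between subsets became 1780 with DESeq2 on 18 libraries and 1315 on the 12 of both subsets and diets, 25 with library size alone, 477 without the filter, 16 with at least 10 counts, 5 with robust dispersion, 3 with limma-voom (Rab4b at an adjusted p of 0.0492, while Batf was lost at 0.0600), 0 with RLE factors, 0 with the compared libraries only, and 0 to 0 with 1 library left out. The cause was not tested. The replicate block gave 0 calls in either direction and 0 for the subsets. The numbers mark no shared animal in the labels and did not pair control with high-fat diet CCR2- libraries. Pairing of CCR2- with CCR2+ libraries, which bears on the test between subsets, was not tested. No result reversed past a threshold under the alternatives run.

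With 3 libraries a group, of which 1 control is close to a mean of the others, and a common dispersion of 1.48, the spread between libraries rather than depth was the limit for genes above a few CPM.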
